A study of Mus musculus with 3 samples.

Results

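The 9 genes described here belong to the tumor necrosis factor (TNF) and interleukin-1 (IL-1) branch of the inflammatory response: Tnf, Il1a, Il1b, Il1rn, Nlrp3, Il6, Il12b, Il10 and Nfkbia. They were chosen by symbol, with earlier results of these data known, and each matched 1 row among the 31053 genes of the matrix. Single-cell RNA sequencing (scRNA-seq) libraries were made from brain tissue of mice labelled strain C56BL6 and aged 10 weeks, 1 library each for control, Ischemic Stroke (IS) and Hemorrhagic Stroke (HS). According to the methods, each library pooled 8 mice, control mice were healthy, IS mice underwent middle cerebral artery occlusion with reperfusion, HS mice received collagenase IV in the striatum, and the tissue was dissociated with an adult brain dissociation kit. No deletion or transgene is labelled for these animals. How long after the stroke these brains were taken was not found in the labels or the methods.

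The 3 libraries were deposited as 1 matrix in which a barcode suffix (1, 2 or 3) tells them apart. Neither the labels nor the methods say which suffix is control, IS or HS, so no stroke effect was computed, and the matrix was treated as 1 pooled sample with no test between samples. Intervals are exact 95% intervals that cover counting error only, and they leave out any difference between mice. Those of levels and of ratios of levels treat each UMI as independent, so they also leave out the spread between cells and are too narrow. Of 35968 barcodes, 31982 held at least 1000 unique molecular identifiers (UMIs, one per captured RNA molecule) and at most 30% mitochondrial UMIs, with a median of 6147 UMIs. Suffixes 1, 2 and 3 kept 8969, 13769 and 9244 barcodes, and between 24 and 43 barcode sequences were shared by a pair of suffixes. A class was given to 27089 barcodes (84.7%) that carried UMIs of at least 3 markers of that class, and such cells are called microglia-like, neutrophil-like and so on. The 10 genes that most set a class apart held at least 1 marker of its own list, except in the 61 neuron-like cells, where they held 0. Cells were placed by these same markers, so this is no independent check of the classes. The library of suffix 3 stood apart: it held 913 of the 932 endothelial-like and 148 of the 170 mural-like cells, and 19 of the 2409 T cell-like cells.

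TNF and the IL-1 ligands are secreted by innate immune cells within minutes to hours of injury, and in the brain microglia and infiltrating myeloid cells are their usual sources. TNF acts through the receptors Tnfrsf1a and Tnfrsf1b. IL-1α (Il1a) and IL-1β (Il1b) share the receptor Il1r1, which IL-1 receptor antagonist (Il1rn) blocks, and IL-1β is released once an inflammasome such as the one built on NLRP3 has activated caspase-1. Both pathways release nuclear factor NF-κB from its inhibitor IκBα, the product of Nfkbia, and NF-κB in turn drives Nfkbia, so that the inhibitor is made as a brake. IL-6 and the IL-12 p40 subunit (Il12b) are further cytokines of this response, and IL-10 restrains it. Enzymatic dissociation of brain at warm temperature is known to induce immediate early genes and some of these cytokines in microglia, so the levels below are those of dissociated cells.

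In the mouse genome (GRCm38, GENCODE M21) Il1a lies at chr2:129299610-129309972 and Il1b at chr2:129364570-129371139, both on the minus strand. Il1rn lies on the same chromosome at chr2:24336853-24351494 on the plus strand. Tnf is at chr17:35199381-35202007 (minus), Nlrp3 at chr11:59541568-59566956 (plus), Il12b at chr11:44400063-44414033 (plus), Il6 at chr5:30013114-30019981 (plus), Il10 at chr1:131019845-131024974 (plus) and Nfkbia at chr12:55489410-55492647 (minus). Promoter windows from RefSeq (GRCm38.p6) were at hand for 8 of the 9 genes, with 11 start sites, and none was listed for Il10. The 250 bases before each start were searched on both strands for GGG, any 2 bases, then TTTCC, a pattern that NF-κB binds, and for TGANTCA, a pattern of the immediate early factor AP-1. The NF-κB pattern was in 1.41% of all 32851 windows and in a window of 3 of the 8 genes (Il6, Nfkbia and Il1rn). The AP-1 pattern was in 6.75% of all windows and in a window of 3 genes (Il6, Il1a and Il1rn). The windows of Il6 and Nfkbia are shown because both hold the NF-κB pattern while these genes were detected in very different sets of cells. The shorter stretches of Il1a and Il1rn hold the other matches, and Il1rn has its matches at separate start sites. Each sequence reads 5′ to 3′ on the strand of the gene, with the pattern in capitals, and the Il1a and both long stretches end at the last base before the start.
Il6, chr5:30012864-30013113, plus strand: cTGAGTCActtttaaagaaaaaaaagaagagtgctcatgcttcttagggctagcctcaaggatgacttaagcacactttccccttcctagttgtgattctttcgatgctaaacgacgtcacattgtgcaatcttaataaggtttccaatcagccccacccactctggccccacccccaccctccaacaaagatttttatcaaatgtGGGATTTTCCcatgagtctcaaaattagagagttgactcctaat
Nfkbia, chr12:55492648-55492897, minus strand: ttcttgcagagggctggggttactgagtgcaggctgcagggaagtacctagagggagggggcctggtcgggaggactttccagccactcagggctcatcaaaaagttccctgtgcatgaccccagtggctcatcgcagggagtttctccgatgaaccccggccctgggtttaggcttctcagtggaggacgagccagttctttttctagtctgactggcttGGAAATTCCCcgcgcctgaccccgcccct
Il1a, chr2:129309973-129310032, minus strand: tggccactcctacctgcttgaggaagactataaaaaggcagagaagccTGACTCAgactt
Il1rn, downstream start, chr2:24345310-24345339, plus strand: ggaaatatgaGGGTTTTTCCgcttctgaca
Il1rn, upstream start, chr2:24336709-24336738, plus strand: tctgctagacTGAGTCAcgcctctggaagc
The NF-κB pattern began 44 bases before the start of Il6 and 29 bases before that of Nfkbia, where it reads on the opposite strand. The AP-1 pattern began 12 bases before the start of Il1a and 249 bases before that of Il6. A match describes letters and does not show that a factor bound there.

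**Figure D1:**
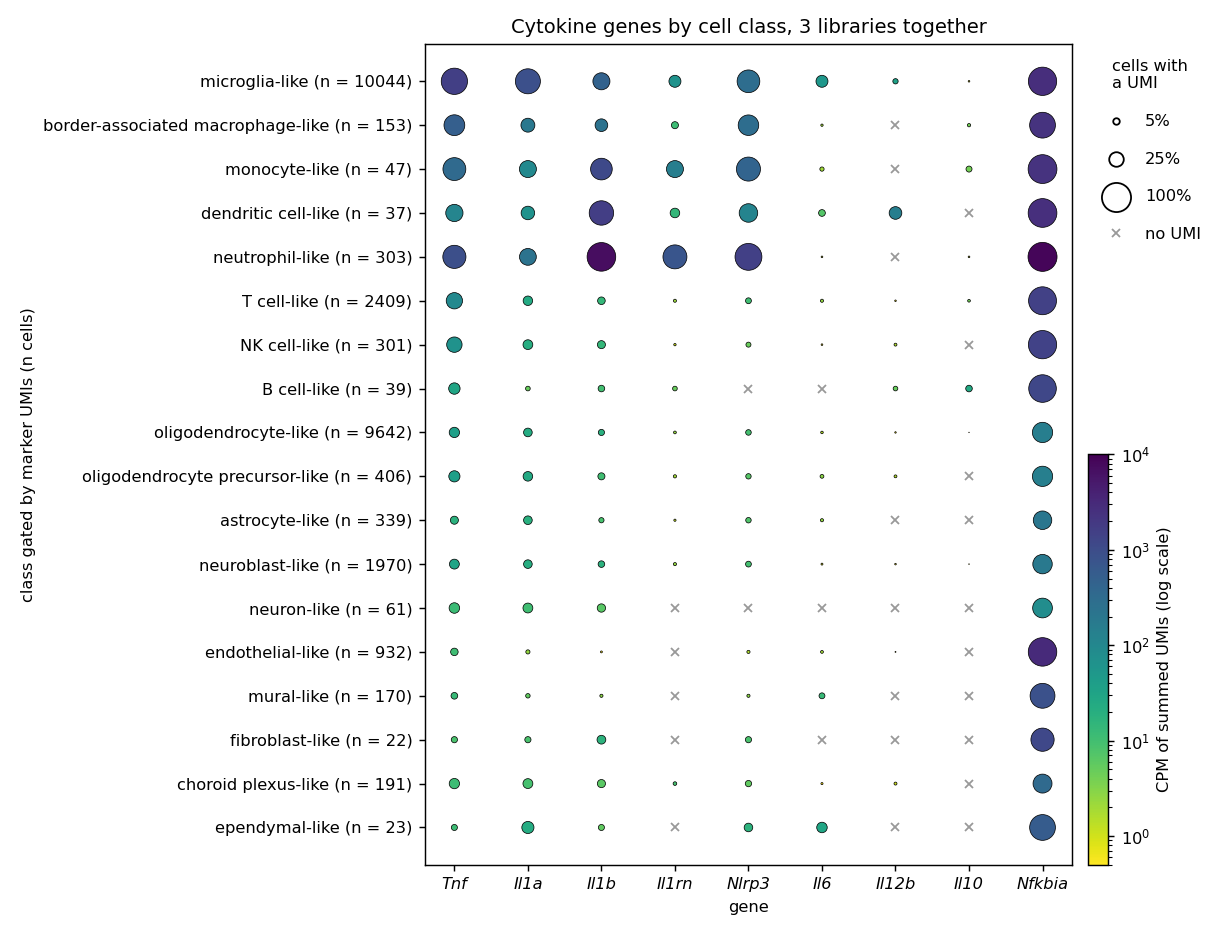
Rows are the 18 cell classes with their number of cells and columns are the 9 genes; the area of a circle is the percent of cells with at least 1 UMI, its color is the level in CPM (UMIs of the gene per 1000000 UMIs) on a log scale, and a cross marks no UMI. Microglia-like and neutrophil-like cells hold the darkest circles of most genes, while Nfkbia is detected in every class.

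Tnf, the founding member of its cytokine family, was detected in 81.4% of the 10044 microglia-like cells (95% interval 80.6% to 82.2%) at a level of 1609 CPM, where CPM is the UMIs of the gene for every 1000000 UMIs of the cells, both summed over cells. Neutrophil-like cells followed with 942 CPM in 63.0% of 303 cells and border-associated macrophage-like cells with 512 CPM in 51.0% of 153 cells. Their counting intervals (885 to 1001 and 468 to 559) did not overlap each other or that of microglia-like cells. By library, microglia-like cells lay above neutrophil-like cells in suffix 1 (1455 and 948 CPM) and suffix 3 (939 and 68.8 CPM). In suffix 2 the 1849 CPM (1837 to 1861) of microglia-like and 1895 CPM (1693 to 2116) of neutrophil-like cells had overlapping intervals. T cell-like cells had 95.4 CPM, natural killer (NK) cell-like cells 67.3 CPM, and the other classes with at least 50 cells between 11 and 39.1 CPM. Among the small classes, the 47 monocyte-like cells had 342 CPM and the 37 dendritic cell-like cells 109 CPM.

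Il1a was detected in 73.8% of microglia-like cells at 884 CPM, against 233 CPM in neutrophil-like and 189 CPM in border-associated macrophage-like cells, whose intervals overlapped. All other classes with at least 50 cells were at 24.9 CPM or below. IL-1α needs no inflammasome for its activity and is active as its precursor.

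Il1b had another distribution. Neutrophil-like cells had 7212 CPM and a UMI of it in 96.7% of cells, while microglia-like cells had 470 CPM and a UMI in 34.2%. Border-associated macrophage-like cells had 241 CPM, or 137 CPM when thinned to 1000 UMIs. By library they lay below microglia-like cells in suffix 1 (166 and 518 CPM). In suffix 2 (614.5 and 522 CPM) and suffix 3 (138 and 129 CPM) the intervals of both classes overlapped. Of the 153 border-associated macrophage-like cells, 106 were of suffix 3. The small classes of dendritic cell-like cells, at 1639 CPM, and monocyte-like cells, at 1136 CPM, lay between neutrophil-like and microglia-like cells. The level per cell differed as well: a neutrophil-like cell with Il1b held a median of 21 UMIs and a microglia-like cell with Il1b a median of 5, although the median depth was 2901 UMIs in the former and 7414.5 in the latter.

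Il1rn is the antagonist of both IL-1 ligands. With the libraries together it had the same top 3 classes in the same order as Il1b, among classes with at least 50 cells. It reached 727 CPM in 67.7% of neutrophil-like cells and 66.6 CPM in 17.0% of microglia-like cells, and 151 CPM in the 47 monocyte-like cells. Border-associated macrophage-like cells had 11.2 CPM (11 UMIs), or 1.27 CPM with 1 marker more in the gate, and no UMI was found in 932 endothelial-like cells, a count that leaves room for at most 0.322% of cells with a captured UMI and sets no limit on cells that express the gene. The 9.38 CPM of choroid plexus-like cells came from 27 UMIs in 3 of 191 cells.

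Nlrp3, the sensor of the inflammasome, was detected in 85.1% of neutrophil-like cells at 1515 CPM, in 60.7% of microglia-like cells at 304 CPM and in 49.7% of border-associated macrophage-like cells at 298 CPM. The intervals of the last 2 classes overlapped. All remaining classes with at least 50 cells were at 10.3 CPM or below. Among the small classes, the 47 monocyte-like cells had 433 CPM (376.5 to 495.7), above microglia-like cells, and the 37 dendritic cell-like cells 116 CPM.

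Il6 and Il12b were found mainly in microglia-like cells. Il6 was detected in 16.9% of them at 52.0 CPM, and 1 UMI of it was found in 303 neutrophil-like cells. Of the classes with at least 50 cells, mural-like cells were next with 12.6 CPM, from 9 UMIs in 7 of 170 cells. Their interval of 5.75 to 23.9 CPM overlapped those of the astrocyte-like and border-associated macrophage-like cells. The 23 ependymal-like cells, too few to be ranked, had 28.5 CPM from 5 UMIs in 3 cells. Il12b was detected in 3.33% of microglia-like cells at 34.0 CPM, and in none of the neutrophil-like cells, a count that leaves room for at most 0.99% of cells with a captured UMI at their median depth of 2901 UMIs. Among the 37 dendritic cell-like cells 7 held Il12b, with 43 UMIs and 151 CPM, a class too small to be ranked here.

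Il10 was rare. It was seen in 31 microglia-like cells (0.309%, 66 UMIs) and in 21 T cell-like cells (0.872%, 54 UMIs), at 0.736 and 4.2 CPM. Within T cell-like cells the CD4 subset had 11.1 CPM from 16 UMIs in 5 of 233 cells, and the CD8 subset 1.69 CPM from 13 UMIs in 6 of 1366 cells. T cell-like cells had the highest level of the ranked classes, but border-associated macrophage-like cells, at 4.09 CPM from 4 UMIs, had an overlapping interval and led without the library of suffix 2 and with upper limits on UMIs and genes. The 39 B cell-like cells, too few to be ranked, had 24.9 CPM from 5 UMIs in 2 cells.

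Nfkbia was detected in every class. It was highest in neutrophil-like cells with 8769 CPM, followed by endothelial-like cells with 3072 CPM, microglia-like cells with 2685 CPM and border-associated macrophage-like cells with 2366 CPM. T cell-like and NK cell-like cells had 1493 and 1404 CPM. Oligodendrocyte-like cells had 148 CPM and neuron-like cells 81.1 CPM. Endothelial-like cells combined this level of Nfkbia with 11 CPM of Tnf and 0.529 CPM of Il1b. They also had 120 CPM of Il1r1, the signalling receptor of IL-1, against 25.2 CPM in mural-like cells, the next class. The median share of UMIs in dissociation stress and immediate early genes was 7.83% in endothelial-like cells. This was the highest of the classes with at least 50 cells, against 3.55% in microglia-like and 0.726% in oligodendrocyte-like cells. Of the 932 endothelial-like cells, 913 were of suffix 3. The part of stress or library in their Nfkbia level was not tested.

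Droplets also capture free RNA and some hold several cells, so a UMI in a class that should lack a gene sets a background. Oligodendrocyte-like cells (9642 cells, median 6084 UMIs) had Tnf in 12.6% of cells at 38.8 CPM, Il1a in 8.81% at 22.3 CPM, Il1b in 4.50% at 18.7 CPM and Nlrp3 in 3.69% at 9.46 CPM. Those with Il1b held a mean of 2.72 UMIs of it, and those with Tnf 2.02. In oligodendrocyte precursor-like cells these means were 1.08 and 1.65. The part of free RNA and of barcodes with several cells in this background was not tested. This background differed by library, as Tnf in oligodendrocyte-like cells was 38.3, 76.5 and 6.96 CPM in suffixes 1, 2 and 3. Neuroblast-like cells had Tnf at 0.844 of the oligodendrocyte level in suffix 1 (0.685 to 1.03), 0.714 in suffix 2 (0.619 to 0.821) and 0.73 in suffix 3 (0.441 to 1.15). No difference above the oligodendrocyte level was detectable for Tnf, Il1a, Il1b or Nlrp3 in neuroblast-like, oligodendrocyte precursor-like or astrocyte-like cells of any library, since each interval of the ratio reached 1 or lay below it.

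T cell-like cells lay above it for Tnf. Their Tnf level was 1.89 times that of oligodendrocyte-like cells in suffix 1 (1.66 to 2.15) and 1.49 times in suffix 2 (1.37 to 1.62). Their Il1a level in the same libraries was 0.621 and 0.80 of the oligodendrocyte level, with intervals below 1. The summed level of the 8 microglia markers, all 8 of which had UMIs in both classes, was 69.8 CPM in T cell-like and 94.3 CPM in oligodendrocyte-like cells of suffix 1, and 86.0 and 129.9 CPM in suffix 2. The part of free RNA in these levels was not tested. A median of 4696 UMIs per T cell-like cell was below the 6084 of oligodendrocyte-like cells. The share of cells with Tnf was 29.8% against 15.6% in suffix 1 and 32.6% against 19.65% in suffix 2. CD4 cells had 116 CPM and CD8 cells 82.8 CPM of Tnf (intervals 98.8 to 135 and 76.5 to 89.5). By library this held in suffix 2, with 173 and 90.9 CPM, while in suffix 1 the 76.7 and 69.7 CPM had overlapping intervals (59.0 to 97.9 and 60.3 to 80.2). NK cell-like cells had 1.57 times the oligodendrocyte level in suffix 1 (1.23 to 1.97) and 1.20 times in suffix 2 (0.855 to 1.63), so that a difference was not detectable in the latter. Endothelial-like cells of suffix 3 had 1.55 times the oligodendrocyte level of Tnf (1.17 to 2.03) and 0.498 times that of Il1a (0.29 to 0.809).

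Against all other gated cells together, 8 of the 9 genes reached 10 CPM in a group and could be compared, and all 8 were at least 2 times higher in microglia-like cells on the CPM + 10 scale. Of all 9165 genes compared this way, 9.84% were at least 2 times higher in microglia-like cells and 27.1% at least 2 times lower. The folds were 25.9 for Il1a, 24.3 for Tnf, 8.12 for Nlrp3, 5.30 for Il6, 4.37 for Il1b, 4.03 for Il12b, 3.96 for Nfkbia and 3.75 for Il1rn. With every cell thinned to 1000 UMIs the fold of Il1rn was 1.91, which left 7. Neutrophil-like cells against all other gated cells had 4 genes at least 2 times higher (background 11.3% of 8637 genes), with folds of 30.3 for Il1b, 17.6 for Il1rn, 9.82 for Nlrp3 and 5.67 for Nfkbia. Il6 and Il12b were at least 2 times lower (background 43.5%), and the folds of Tnf and Il1a were 1.24 and 0.574.

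Other genes of these pathways are given by list, each against all other gated cells, to be read beside the shares of all genes above (9.84% higher and 27.1% lower in microglia-like, 11.3% higher and 43.5% lower in neutrophil-like cells). In the NF-κB list of subunits and inhibitors, 6 of 12 compared genes were at least 2 times higher in microglia-like cells and 0 lower, and 6 of 12 were higher in neutrophil-like cells. Nfkbiz, an inducible nuclear IκB, had 1225 CPM in microglia-like and 1300 CPM in neutrophil-like cells, and Rel, an NF-κB subunit of immune cells, 287.5 and 351.6 CPM. In the inflammasome list, 4 of 7 genes were at least 2 times higher in microglia-like cells. In neutrophil-like cells 1 of 7 was higher and 3 lower, shares near those of all genes. Pycard, the adaptor that links NLRP3 to caspase-1, had 477 CPM in microglia-like and 60.6 CPM in neutrophil-like cells, the reverse of the order of Nlrp3. Casp4, the caspase of the noncanonical inflammasome, had 111 and 245 CPM. Among receptors of IL-1 and their signalling partners, 1 of 7 genes was higher and 1 lower in microglia-like cells, while 5 of 9 were higher in neutrophil-like cells. Il1r2, the decoy receptor of IL-1, had 901 CPM in neutrophil-like cells, and the next class with at least 50 cells had 1.98 CPM. In the list of TNF receptors and processing genes, 1 of 7 was higher and 1 lower in microglia-like cells, and 3 of 6 were higher in neutrophil-like cells. These included Tnfrsf1b with 399 CPM and Tnfrsf1a with 224 CPM, against 37.0 and 72.4 CPM in microglia-like cells. Of the receptors and partner subunits of IL-6, IL-10 and IL-12, 4 of 5 were higher in microglia-like cells, among them the IL-10 receptor chain Il10ra with 159 CPM, and 2 were higher and 1 lower in neutrophil-like cells. Of the feedback regulators, 5 of 7 were higher in either class. Zfp36, which promotes decay of Tnf mRNA, had 1768 CPM in microglia-like and 2680 CPM in neutrophil-like cells, and Tnfaip3, a brake on NF-κB, 625 and 737 CPM. Of the 22 dissociation stress and immediate early genes, 14 were at least 2 times higher and 0 lower in microglia-like cells, with a median fold of 2.52 against 0.687 over all genes, and 5 were higher and 7 lower in neutrophil-like cells. Those higher in microglia-like cells were mostly immediate early genes. The heat shock gene Hspa1a had folds of 1.36 in microglia-like and 0.151 in neutrophil-like cells. The higher levels of the members in microglia-like cells thus came with higher levels of many immediate early genes, whose part was not tested.

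Single microglia-like cells differed in which of the genes they held. With all cells thinned to 1000 UMIs, a microglia-like cell held a mean of 1.41 of the 8 genes other than Nfkbia and 24.3% of cells held none of them. Neutrophil-like cells held a mean of 2.56 and 3.96% held none, while oligodendrocyte-like cells held a mean of 0.0811. Il12b was held by few cells: 335 microglia-like cells held it, up to 64 UMIs in a cell, and the 100 cells with the most held 72.3% of its UMIs. The same measure was 29.6% for Il1rn, 27.2% for Il6, 19.3% for Il1b, 9.33% for Nlrp3, 8.14% for Tnf, 8.01% for Il1a and 5.38% for Nfkbia.

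**Figure D2:**
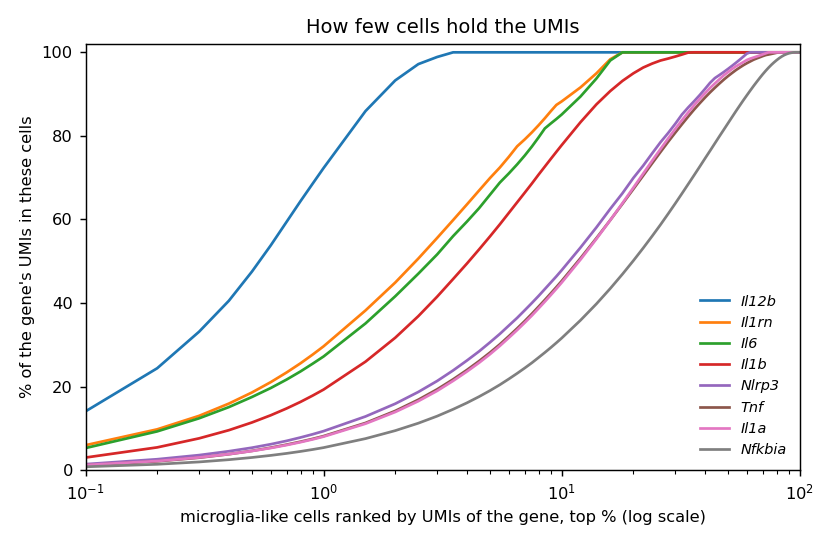
The x axis is the top percent of the 10044 microglia-like cells when ranked by UMIs of a gene (log scale), and the y axis the percent of that gene's UMIs these cells hold, with 1 line for each of 8 genes. The line of Il12b rises first and reaches 72.3% at the top 1% of cells, where the line of Nfkbia is at 5.38%.

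Cells with Il12b also held more of the other cytokines. Among thinned microglia-like cells, the 132 with Il12b had Tnf in 78.8% of cells against 53.6% of the others, Il1a in 65.9% against 40.1%, and Il1b in 37.1% against 16.3%. The same direction was seen in suffix 1 (Il1b 43.8% against 17.3%) and suffix 2 (33.7% against 18.8%). Suffix 3 had 1 such cell. Cells with Il6 had Tnf in 70.7% against 53.2%, and Il1b in 14.3% against 16.7%. Within suffix 1, Il1b was in 14.5% of cells with Il6 against 17.9% of the others, and in 16.3% against 19.1% in suffix 2. Suffix 3 had the opposite direction, with 8.45% against 7.25% (71 cells with Il6). By level, Il1b had 430 CPM in cells with Il6 and 399 CPM in the others in suffix 1. These levels were 380 and 426 CPM in suffix 2, and 113 and 120 CPM in suffix 3. No interval was computed for these small differences, so they give no direction for Il1b. Tnf and Il1a went together, as Il1a was in 50.6% of cells with Tnf and 28.6% of cells without.

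Microglia-like cells were then compared between the libraries, as values of 1 library each. Tnf had 1455, 1849 and 939 CPM in suffixes 1, 2 and 3. Il1a had 869, 908 and 816 CPM, with suffix 2 at 1.11 times suffix 3 (1.09 to 1.14). Il1b had 518, 522 and 129 CPM, so that suffix 1 and suffix 2 were alike and suffix 3 was 4.01 times below suffix 1 (3.80 to 4.23). Il1rn had 71.0, 78.3 and 5.10 CPM, with the lowest value again in suffix 3 (59 UMIs in 1726 cells). Nlrp3 had 303, 317 and 251 CPM. Il6 was highest in suffix 1, with 70.4, 43.1 and 46.5 CPM. Il12b had 42.1, 36.9 and 2.25 CPM, and in suffix 3 its 26 UMIs came from 3 cells. Il10 had 28, 37 and 1 UMIs. Nfkbia had 2155, 2979 and 2684 CPM, with the lowest value in suffix 1.

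Of the 8 genes compared, 3 (Il1b, Il1rn and Il12b) differed at least 2 times between the highest and the lowest library on the CPM + 10 scale, where 10.9% of all 7563 genes did. In all 3 the library of suffix 3 was at least 2 times below both others, as were 2.06% of all genes. No member was at least 2 times above both others in suffix 3, where 5.26% of all genes were. The median ratio of highest to lowest was 1.74 over the 8 genes and 1.4 over all genes. Without suffix 3 the level in microglia-like cells was 521 CPM for Il1b, 75.7 CPM for Il1rn, 38.7 CPM for Il12b and 1709 CPM for Tnf. Of the 5 compared receptors and partner subunits of IL-6, IL-10 and IL-12, suffix 3 was at least 2 times above both others for 2 and below both for 1. In suffix 3 the IL-6 receptor chains Il6ra and Il6st had 189 and 70.9 CPM in microglia-like cells, against at most 63.2 and 27.5 CPM in the other libraries (Il6ra is named here after its values were seen). Il23a, which pairs with the p40 subunit in IL-23, had 16.4, 22.5 and 2.42 CPM and was the one below both, as Il12b was.

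**Figure D3:**
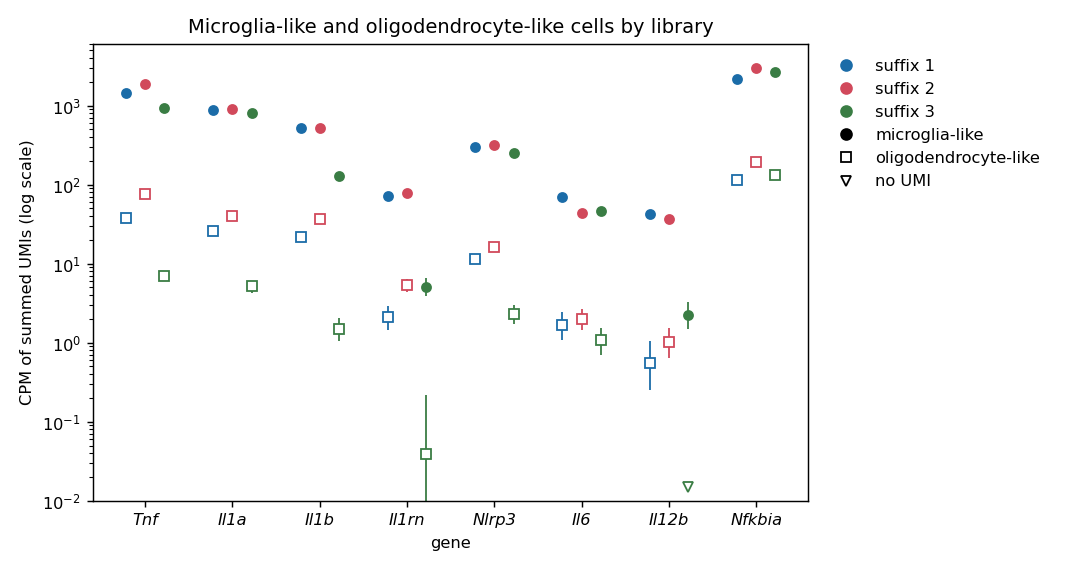
Filled circles are microglia-like and open squares oligodendrocyte-like cells of each suffix, in CPM on a log scale for 8 genes, with exact 95% Poisson intervals that are often smaller than the symbol; a triangle marks no UMI. Suffix 3 lies below the others for Il1b, Il1rn and Il12b in microglia-like cells, and its oligodendrocyte-like cells are lowest for 7 of the 8 genes, Nfkbia being the exception.

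Other measures moved with the library. The summed level of the 10 neutrophil markers within microglia-like cells was 40.2, 9.48 and 39.2 CPM in suffixes 1, 2 and 3, with 9, 9 and 8 of the markers seen (Ltf at 0 in suffix 1, Ly6g in suffix 2, Mmp8 and Mmp9 in suffix 3). The summed level of the 8 monocyte markers was 94.2, 153 and 9.25 CPM, lowest in suffix 3 as Il1b, Il1rn and Il12b were. It was highest in suffix 2, as Il1rn was, while Il1b was alike in suffixes 1 and 2 and Il12b was highest in suffix 1. Fn1 made up most of that sum in suffixes 1 and 2, with 79.5, 134 and 4.93 CPM, and Ms4a4c had 11.1, 15.3 and 1.90 CPM. Ccr2 and Ly6c2 were at 1.71 CPM or below in each library. In the 2320, 3637 and 1623 microglia-like cells with no UMI of a monocyte marker, Il1b had 453, 501 and 132 CPM, Il1rn 54.2, 61.4 and 5.10 CPM and Il12b 39.7, 29.6 and 2.41 CPM. The summed level of the 10 dendritic cell markers was 122.5, 112 and 311 CPM, with 10, 9 and 7 of them seen. The summed level of the 8 microglia markers was 3468, 3289 and 6487 CPM. The median share of UMIs in the 22 dissociation stress and immediate early genes was 2.91%, 3.26% and 5.35%, highest where Il1b, Il1rn and Il12b were lowest. Of that list, 4 of 22 genes were at least 2 times above both others in suffix 3 and 0 below. Median depth was 7443, 8048 and 6555 UMIs. The part of these measures in the library differences was not tested.

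Microglia activated after injury or near amyloid and demyelination express a shared set of genes, among them Cst7. Cells with Cst7 and at least 2 of the other activation markers Lpl, Itgax, Spp1 and Csf1 are called activated here, and they were compared with microglia-like cells that held none of the 5. Suffixes 1 and 2 had 1341 and 2987 activated cells, suffix 3 had 6. Cells without any of these markers numbered 349, 257 and 1330. In suffix 1, thinned to 1000 UMIs per cell, activated cells had 553 CPM of Il1b and cells without the markers 186 CPM, a ratio of 2.97 (2.30 to 3.88). In suffix 2 the values were 571 and 109 CPM, a ratio of 5.24 (3.61 to 7.90). Il1rn had 76.1 and 5.73 CPM in suffix 1 and 79.0 and 15.6 CPM in suffix 2, with ratios of 13.3 (3.58 to 111) and 5.08 (1.96 to 18.8) that rest on 2 and 4 UMIs in the cells without markers. Il12b had 60 UMIs against 3 in suffix 1, a ratio of 5.21 (1.70 to 25.9), and 111 against 0 in suffix 2, at least 3.18-fold higher with a floor of 3 UMIs for the group. At full depth the ratio of Il12b in suffix 1 was 1.68 (1.26 to 2.28), an interval that overlaps the thinned one. The cells without markers there held 50 UMIs of Il12b in 6 of 349 cells at full depth, so the size of the ratio is uncertain. On the CPM + 10 scale the full-depth value was 1.51, below 2 times.

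These 3 genes were at least 2 times higher in activated cells of both libraries on the CPM + 10 scale, as were 2.13% of 6627 genes. The background for at least 2 times lower was 4.38%, and 0 of the members were. Tnf was 1.45 times higher in suffix 1 (1.29 to 1.63) and 1.85 times in suffix 2 (1.63 to 2.10). Il1a was 1.19 times (1.03 to 1.39) and 1.34 times higher (1.15 to 1.57), but at full depth the ratio in suffix 1 was 1.05 (0.988 to 1.11), where a difference was not detectable. Nlrp3 was 1.31 and 2.23 times higher. Il6 went the other way, with 0.521 in suffix 1 (0.354 to 0.777) and 0.825 in suffix 2 (0.454 to 1.64), and Nfkbia had 0.619 (0.575 to 0.666) and 0.83 (0.774 to 0.89). Activated cells were deeper, with medians of 12828 and 11740 UMIs against 4485 and 4021, and the gate needs detected markers, so deep cells enter it more easily. Their median share of stress gene UMIs was lower, 1.78% against 4.88% in suffix 1 and 2.59% against 5.06% in suffix 2. The summed neutrophil markers were 23.1 CPM in activated cells and 40.8 CPM in cells without activation markers in suffix 1, and 9.09 and 24.7 CPM in suffix 2. The summed monocyte markers went with Il1b and Il1rn, at 129 CPM in activated cells against 20.4 CPM in suffix 1 and 190 against 26.6 CPM in suffix 2. The part of depth, stress share and these markers in the differences was not tested.

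Cells without activation markers were also set side by side between the libraries. Il1b had 164, 103 and 128 CPM in suffixes 1, 2 and 3 at full depth, so that suffix 3 lay between the others. Il1rn had 8.03, 11.4 and 4.01 CPM, Tnf 1048, 1055 and 885 CPM and Il1a 784, 693 and 786 CPM. Nlrp3 had 263, 180 and 244 CPM and Il6 94.5, 60.8 and 46.9 CPM, both further apart than over all microglia-like cells. Il12b had 30.9, 0 and 2.24 CPM, from 50 UMIs in 6 of 349 cells in suffix 1 and a count of 0 in 257 cells of suffix 2. The shares of cells, 1.72% (0.634% to 3.70%) and 0% (up to 1.425%), had overlapping intervals. Overlap of these intervals does not decide whether the shares differed. The CPM intervals, 22.9 to 40.7 and 0 to 3.50, did not overlap, but in suffix 1 the level rests on 6 cells.

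**Figure D4:**
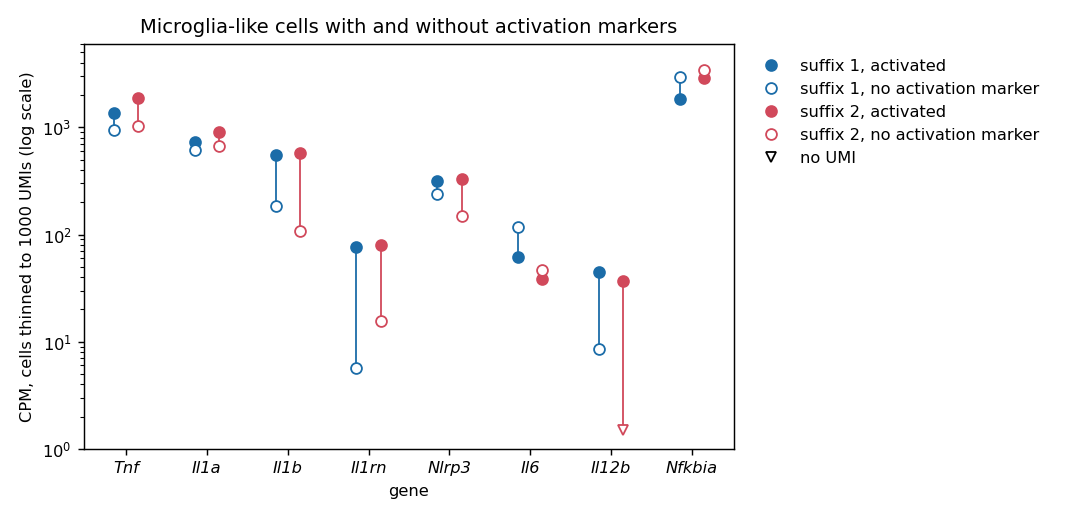
Filled circles are activated microglia-like cells and open circles microglia-like cells without activation markers, in CPM of cells thinned to 1000 UMIs (log scale), for suffixes 1 and 2; a triangle marks no UMI. The gap is widest for Il1b, Il1rn and Il12b, and Il6 and Nfkbia have the open circle on top.

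To set the genes beside dissociation stress, microglia-like cells of each library were ranked by their share of UMIs in the 22 stress genes and split into terciles, and levels were taken after thinning. Nfkbia was higher in the highest than in the lowest tercile of each library, going from 921 to 3472 CPM in suffix 1, from 1898 to 3916 CPM in suffix 2 and from 2061 to 3038 CPM in suffix 3. Nlrp3 went from 238 to 315, from 233 to 318 and from 175 to 244 CPM. Il1b went down in each, from 484 to 292, from 496 to 268 and from 153 to 85.2 CPM. Il1rn went from 85.3 to 19.9, from 90.1 to 13.6 and from 10.4 to 1.74 CPM, and Il12b from 38.7 to 8.94, from 48.7 to 5.67 and from 1.74 to 0 CPM. In suffix 3 the thinned values of Il1rn and Il12b rest on few UMIs, so their direction there is uncertain.

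Tnf was highest in the middle tercile of each library. In suffix 1 it had 1154, 1554 and 1107 CPM from the lowest to the highest tercile, in suffix 2 it had 1789, 1871 and 1216 CPM, and in suffix 3 it had 868, 1000 and 563.5 CPM. Il1a had its highest value in the middle tercile of each library as well. Il6 had 69.4, 66.5 and 69.5 CPM in suffix 1, 43.6, 43.1 and 43.6 CPM in suffix 2, and 50.4, 57.4 and 27.8 CPM in suffix 3, where it was lowest in the highest tercile. Of the 7 genes with at least 10 CPM in a tercile of every library, 2 (Nlrp3 and Nfkbia) were higher in the highest tercile of all 3 libraries by any amount, as were 37.3% of 6389 genes. Lower in all 3 were 3 (Tnf, Il1b and Il1rn), as were 16.3% of genes. For Tnf this was not kept with terciles by immediate early genes alone, where it went from 1156 to 1169 CPM in suffix 1. With those terciles Il1rn in suffix 3 had 5.21, 6.96 and 1.74 CPM, below 10 CPM in each. None of the 7 genes changed at least 2 times in all 3 libraries, where 0.642% of 6389 genes were at least 2 times higher and 0.0626% lower. The highest tercile was also the shallowest, with a median of 5494 UMIs against 11740 in the lowest tercile of suffix 1, 5404 against 11486 in suffix 2 and 6085 against 6483.5 in suffix 3. Depth thus moved with the stress share. So did activation, as activated cells had a lower median stress share than cells without activation markers. It was 1.78% against 4.88% in suffix 1 and 2.59% against 5.06% in suffix 2. The part of dissociation stress, depth and activation in these levels was not tested.

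**Figure D5:**
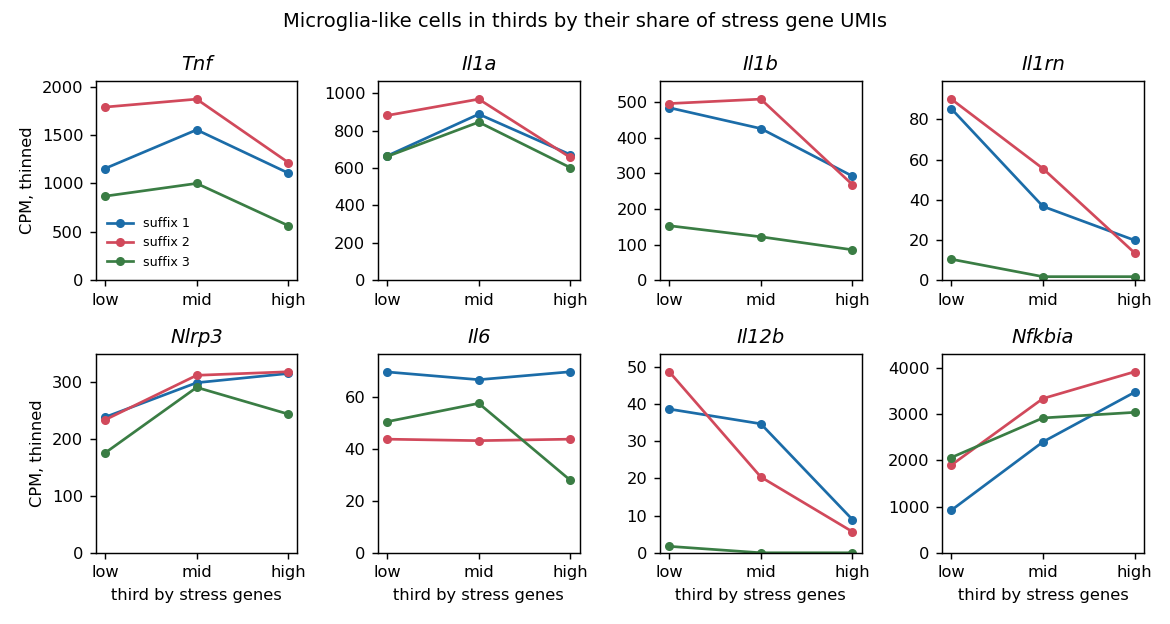
Each panel is a gene, with the level in CPM of thinned microglia-like cells (y axis, from 0) in the lowest, middle and highest tercile by share of stress gene UMIs (x axis) and a line for each suffix. Nfkbia climbs to the highest tercile in every library, Il1b, Il1rn and Il12b end lower than they start, and Tnf peaks in the middle.

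Neutrophil-like cells came mostly from suffix 1, with 215, 64 and 24 cells in suffixes 1, 2 and 3. Il1b had 8549, 7367 and 1768 CPM in them, and Il1rn 800, 1085 and 116 CPM. Tnf had 948, 1895 and 68.8 CPM, and Nlrp3 1764, 1883 and 196 CPM. Nfkbia had 10025, 11837 and 1058 CPM. The 24 cells of suffix 3 were lowest for each of these genes. Their median depth was 6344.5 UMIs against 2953 and 2393, and their median stress share 0.759% against 2.53% and 2.14%. Without suffix 1 the level of Il1b in neutrophil-like cells was 4401 CPM and that of Nlrp3 989.5 CPM, below the values over all libraries by more than 1.5 times.

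Over the 26 sums of a class within a library that held at least 50 cells, the pattern of Tnf was most like those of Ccl3 (Pearson r 0.97 on log2(CPM + 10)), Il1a (0.965) and Cd300c2 (0.96). Il1a was most like Cd300c2 (0.973) and Mpeg1 (0.967). Il1b was most like Slc15a3 (0.974), Nlrp3 (0.973) and Osm (0.972), and Nlrp3 like Slc15a3 (0.987), Clec5a (0.986) and Igsf6 (0.982). Il1rn was most like Hcar2 (0.991), Acod1 (0.983) and Il23a (0.982). Nfkbia was most like Ifrd1 (0.982), Map3k8 (0.965) and Zc3h12a (0.954). The sums share 3 libraries and their free RNA, so these values only describe likeness.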

How the data were processed

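The authors deposited 1 matrix of UMI counts per gene and barcode (raw counts, no normalization per cell). Per the labels and methods they used Chromium 3' v3 chemistry, Cell Ranger 3.1.0 with STAR and mm10, and down-sampled reads across libraries. 3' counts do not scale with gene length. Barcodes with at least 1000 UMIs and at most 30% mitochondrial counts were kept. A class needed at least 3 of its markers, and a barcode in several gates was placed only where its best share was at least 2 times the next. This left out 3227 barcodes, and doublets were otherwise left out only as an alternative, with Scrublet (scanpy 1.11.5), which called 4.82% of kept barcodes. Levels are CPM of summed counts with exact Poisson intervals, shares have Clopper-Pearson intervals, ratios have exact conditional intervals, and a count of 0 was given a floor of 3 counts. A gene was compared where it had at least 10 CPM in a group, and a difference was called at 2 times on CPM + 10. Thinned cells hold 1000 UMIs each. With 1 pooled sample there was no test between groups. Tested on simulated data (3000 cells, 31053 genes, microglia-like against other cells), the gates classed 95.9% of cells and misplaced 0%. Only microglia, neutrophils, T cells, oligodendrocytes, astrocytes and endothelial cells were simulated, with marker levels of cells that these gates had placed. The simulation therefore cannot show how often real cells are misplaced. Of 200 genes simulated as changed, 98% had an estimate no further than 1.25 times from the true fold. Those folds used the true classes and no added 10 CPM, unlike the folds reported here. No changed gene was at a level as low as Il6, Il12b or Il1rn outside microglia-like cells. The 98% therefore does not extend to folds on CPM + 10 of gated cells.

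The members and lists were chosen with earlier results of these data known. The text names the 9 members, up to 4 genes with the highest CPM per list, and the 3 genes most like each of 6 members. Clec7a was listed as an activation marker and had no row in the matrix, which left 5 of 6. Python 3.11.15, NumPy 2.4.6, SciPy 1.17.1, pandas 2.3.3 and Matplotlib 3.10.9 were used. Suffix and condition were not paired, so control, IS and HS were not compared.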

Additional observations from a re-analysis of the deposited data

Results flagged for a closer look

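Barcodes outside the comparisons also held Tnf and Il1b, above the 38.8 and 18.7 CPM of oligodendrocyte-like cells except where stated. The 2862 barcodes under 1000 UMIs had 489.5 CPM of Tnf and 249.8 CPM of Il1b. The 1124 barcodes with over 30% mitochondrial counts had 64.46 CPM of Tnf and 12.22 CPM of Il1b, the latter below the oligodendrocyte level. The 3227 barcodes that passed several gates had 637.9 CPM of Tnf and 239.5 CPM of Il1b, and the most frequent pair of gates was microglia with oligodendrocyte (934 barcodes). The 1666 barcodes that passed no gate, with a median of 1878 UMIs, had 907.4 CPM of Tnf and 417.3 CPM of Il1b.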

How the results depend on the processing

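The count of 4 genes highest in neutrophil-like cells was 4 under every alternative run, which were 1 marker more or fewer in the gate, a mitochondrial limit of 10%, upper limits on UMIs and genes, thinning, each library left out and called doublets left out. Within suffix 3 alone the order was not kept for Nfkbia, with 1058 CPM in neutrophil-like and 3040 CPM in endothelial-like cells. Nlrp3 had 196 CPM in neutrophil-like and 251 CPM in microglia-like cells of suffix 3, with overlapping intervals. The 8 genes higher in microglia-like cells were 8 under each, also with CPM + 1 and with no filter on low values, except 7 when thinned. The 3 genes that differed between libraries were 3 under each alternative run that kept the library of suffix 3. Without it, suffix 1 was 0.991 times suffix 2 for Il1b, 0.907 times for Il1rn and 1.14 times for Il12b in microglia-like cells. The count of 3 thus rests on the library of suffix 3. With CPM + 1, however, all genes that differed at least 2 times between libraries were 1930 and not 824, so the background of that count depends on the pseudocount. Of 315 levels of a member in a class under an alternative, 199 were within the counting interval of the main value and 116 outside it. With a library left out, Il1b in neutrophil-like cells ranged from 4401 to 8333 CPM. When thinned, Il1rn in microglia-like cells was 43.0 and not 66.6 CPM, and Il12b 21.5 and not 34.0 CPM. A level at full depth weights each cell by its depth, while a thinned level weights all cells equally. Why deeper cells held a larger share of these genes was not tested. The 2 of 9 genes higher in the highest stress tercile of all 3 libraries were 2 at full depth and with immediate early genes alone. Tnf was not lower in all 3 libraries with immediate early genes alone. Without suffix 2, Il1a and Il10 in T cell-like cells were 15.8 and 2.13 CPM and not 24.75 and 4.2. Leaving out called doublets in the fold comparisons, the summed markers of other classes, microglia-like cells without monocyte markers, the ratios to oligodendrocyte-like cells and the full-depth ratios of activated cells were chosen after seeing the data. No paired analysis was possible because the suffixes are not paired with samples and no result comes from a test. Levels under about 1 CPM, such as Il10 in microglia-like cells, rest on few UMIs and limit what can be compared.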
